A study of Mus musculus with 5 samples.

Results

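The genes described here are morphogens, growth factors, their receptors and the proteins named after them. They were chosen as genes whose only symbol in the platform annotation begins with Wnt, Fzd, Fgf, Bmp, Tgfb, Notch, Dll, Igf, Pdgf or Vegf, leaving out Igf2 itself. There were 56 such genes among 9050 with a symbol of their own on the array, read by 83 probes, and 54 of them had a value on all 5 arrays. By role, 26 were ligands and 18 were receptors. The other members were binding proteins and genes named for a pathway that are neither ligand nor receptor. The receptor Igflr1 had no value at 0.5 h and the ligand Fgf18 none at 2 h, so that 25 ligands and 17 receptors enter the counts below. Both were near 0 where measured, Igflr1 between -0.24 and 0.01 and Fgf18 between 0.06 and 0.17. Another 2 probes that also carried the symbol of an unrelated gene were not used.

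The cells were macrophages grown from C3H/HeJ bone marrow in culture with human CSF-1. C3H/HeJ is a strain whose Tlr4 mutation makes it hyporesponsive to lipopolysaccharide (LPS). Cells were left unexposed (0 h) or given LPS of S. minnesota at 10 µg per ml for 0.5, 2, 7 or 21 h. Each time was measured on 1 two-colour array against total RNA of whole C57BL6/J embryos of 17.5 days, so the reference differs from the macrophages in strain as well as in tissue. Values are log ratios of macrophage over embryo, read as log10 and centred on the median gene of each array. A value of 0.301 is then a 2-fold difference, the size used throughout to call a gene above or below embryo, or higher or lower than at 0 h. With 1 array per time and no replicates, no test was run, and the labels do not say whether the times came from separate cultures. The spread given is that over the 5 arrays, which differ in time as well as in chance, or that between probes of a gene.

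Morphogens and growth factors act between cells. Wnt proteins bind Frizzled receptors, Delta-like ligands bind Notch on neighbouring cells, and BMP and TGF beta ligands bind serine/threonine kinase receptors. FGF, IGF, PDGF and VEGF ligands bind receptor tyrosine kinases. These families pattern and grow embryonic tissue, and the reference is RNA of whole embryos. Which of its cells use them was not measured here. Macrophages are known as a source of some of the ligands, Igf1 among them, and many of the receptors are known from epithelial and mesenchymal cells. In whole embryo RNA, fewer cells that express a gene and less of its RNA per cell cannot be told apart.

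The direction of the ratio is not stated in the labels and is likely, not settled. It rests on marker genes. Of 7 measured macrophage markers 5 lay 2-fold or more above 0, with a list median of 1.18, and of 10 embryo markers 9 lay 2-fold or more below, with a list median of -1.26. The macrophage markers Cd68 (median -0.21) and Tyrobp (-0.18) went the other way on all 5 arrays. Fibroblast and stromal markers were below embryo in 6 of 7 genes, with a list median of -0.77, and 6 endothelial markers had a list median of 0.10 with Pecam1 (-0.43) below. The 0.5 h array stood apart from the rest. Across probes its correlation with the mean of the 0, 2, 7 and 21 h arrays was 0.51, whereas each of these 4 followed the mean of the other 3 at 0.75 to 0.90. Among the 54 members the correlation with the 0 h array was 0.59 for the 0.5 h array and 0.78 to 0.93 for the later ones. Pooled over 3277 genes with more than 1 probe, probes of the same gene had an SD of 0.52 on the 0.5 h array and of 0.25 to 0.31 on the others. Spot brightness was not analysed here, so a ratio near 0 may come from equal levels or from a probe near background in both channels.

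Read as macrophage over embryo, more members lay on the embryo side than on the macrophage side. Taking the median of the 5 arrays for each gene, 14 of 54 members (25.9%) were 2-fold or more below embryo, where 9.09% of the 8463 genes measured on all arrays were. Only 3 members (5.56%) were 2-fold or more above, where 9.41% of all genes were, and 37 lay in between. If the ratio ran the other way, these counts would turn, to 14 above embryo and 3 below, and so would every side named below. All 14 were below 0 on every array, and 6 of them were past 2-fold on every array. The same arrays picked these 14, so most values of each gene are low by the rule. The shares among all genes picked this way were not computed, and nothing is read from these counts. Over the sign alone, 21 of 54 members were below 0 on all 5 arrays (38.9%, all genes 23.9%) and 8 were above 0 on all 5 (14.8%, all genes 22.5%). Leaving out the 0.5 h array, these counts were 25 (46.3%, all genes 29.6%) and 11 (20.4%, all genes 29.2%). Without the 0.5 h array and over the same 54 genes, 15 members were 2-fold below (27.8%, all genes 8.79%) and 4 above (7.41%, all genes 8.97%). The median member lay at -0.07, where the median of all genes lay at 0.00.

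The share of members 2-fold below embryo was higher than that of all genes on each array by itself. On the 0 h array 14 members were below (25.9%, all genes 8.77%), at 0.5 h 14 (25.9%, all genes 16.9%), at 2 h 17 (31.5%, all genes 12.8%), at 7 h 14 (25.9%, all genes 7.86%) and at 21 h 13 (24.1%, all genes 8.97%). The share above did not go one way. It was lower than that of all genes at 0 h, with 3 members (5.56%, all genes 8.68%), at 0.5 h with 8 (14.8%, all genes 23.3%), at 2 h with 4 (7.41%, all genes 13.4%) and at 7 h with 3 (5.56%, all genes 12.3%). At 21 h it was higher, with 7 members (13.0%, all genes 9.67%).

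**Figure D1:**
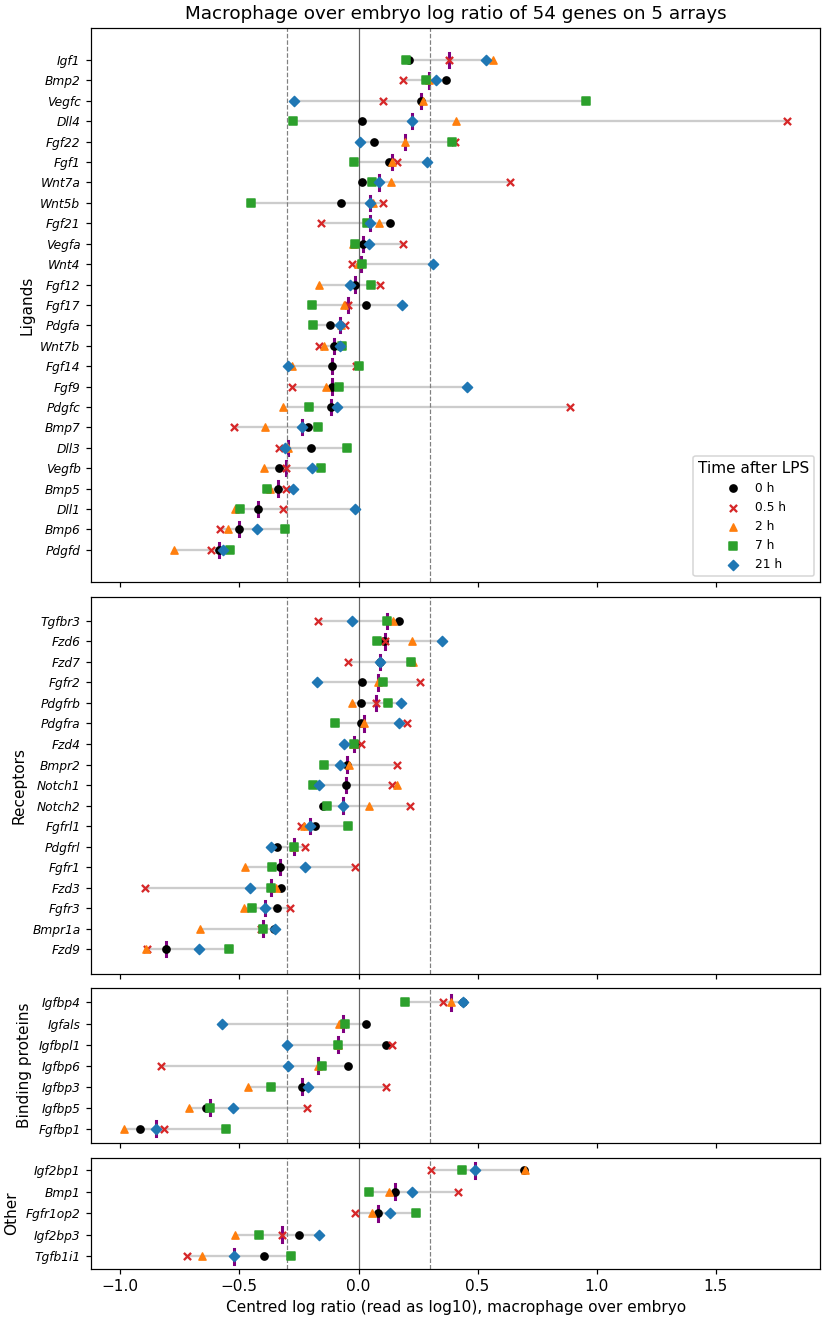
Centred log ratio of macrophage over embryo (horizontal axis, read as log10) for the 54 genes with a value on all 5 arrays, by role. Each symbol is 1 array, grey lines run from the lowest to the highest array, purple ticks mark the median of the 5 arrays and dashed lines mark a 2-fold difference. More genes lie past the left dashed line (14 by their median) than past the right (3), and the red crosses of the 0.5 h array are often farthest from the rest.

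Ligands and receptors had medians close together over all probes. Over the median of 5 arrays, the 25 ligands had a median of -0.04 and the 17 receptors one of -0.05. The difference of ligands minus receptors was 0.01, small beside the SD across genes of 0.25 within each of the 2 groups. Array by array the difference was -0.02 for 0 h, -0.02 for 0.5 h, -0.05 for 2 h, 0.06 for 7 h and 0.15 for 21 h. Its sign was not the same on all arrays. Over the 19 ligands and 12 receptors with probes in stretches of the array where 0.5 h followed the other arrays, the ligand median was 0.05, the receptor median -0.13 and the difference 0.17. Arrays were centred anew there on the 4159 genes measured by such probes, so genes that kept all their probes shifted too. Of the ligands 5 were 2-fold below embryo (20.0%, all genes 9.09%), 1 was above (4%, all genes 9.41%) and 19 lay in between. Of the receptors 5 were below (29.4%), none was above and 12 lay in between. The ligand above was Igf1, with Bmp2 in its place after quantile normalization or scaling to one spread, and the highest receptor, Tgfbr3, stood at 0.12. Restricting the lists to secreted ligands and signalling receptors, which takes out Fgf12, Fgf14, Fgfrl1 and Pdgfrl, left the medians at -0.04 and -0.05; this was chosen after seeing the data.

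**Figure D2:**
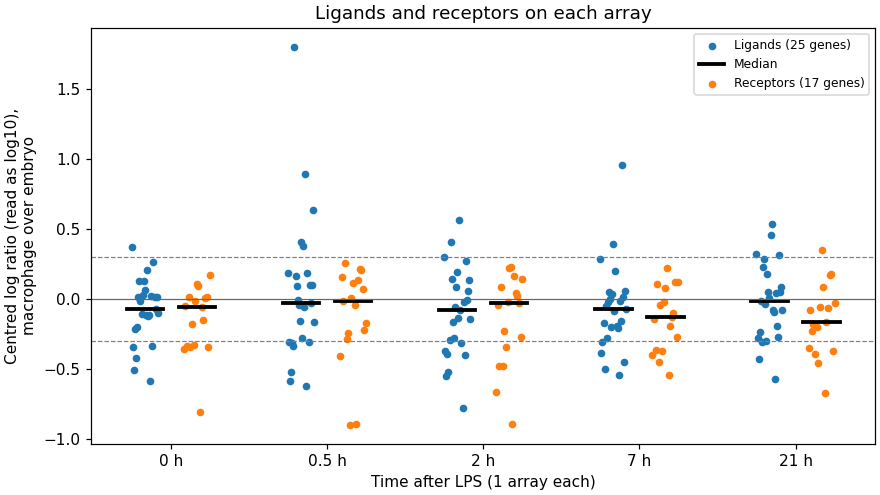
Centred log ratio of macrophage over embryo (vertical axis, read as log10) for 25 ligands and 17 receptors on each of the 5 arrays. Points are genes, black bars are medians and dashed lines mark a 2-fold difference. The 2 medians lie close together at 0, 0.5 and 2 h, and at 21 h the receptor median (-0.16) is below the ligand median (-0.01).

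Among the ligands above embryo, Igf1, which encodes the growth factor IGF-1, came first. Its 1 probe read 0.21, 0.38, 0.56, 0.20 and 0.53 on the 0, 0.5, 2, 7 and 21 h arrays, the order used for all values below. All 5 arrays were above 0, with a median of 0.38 (SD over the arrays 0.17), a 2.39-fold excess over embryo. The 0 and 7 h arrays were the lowest and the 2 and 21 h arrays the highest, and without the 2 h or the 21 h array the median was 0.29, under the 2-fold mark. After quantile normalization Igf1 stood at 0.29, and with arrays scaled to one median absolute deviation at 0.26, also under the mark. Bmp2, a bone morphogenetic protein, was the steadiest ligand on this side. It read 0.37, 0.19, 0.30, 0.28 and 0.32 with a median of 0.297 and an SD of 0.07, just under the mark. It passed the mark at 0.30 or 0.31 without the 0.5, 2 or 7 h array. Without centring, after either scaling and over the stretches above it stood at 0.32 to 0.35. In the stretches its probe was the same and only the centring differed.

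Vegfc, a growth factor of lymphatic vessels, had a median of 0.26, but its single probe read 0.26, 0.10, 0.27, 0.95 and -0.27. The 7 h array was the high value and the 21 h array the only one below embryo. Dll4, a Delta-like Notch ligand known from arterial endothelium, had a median of 0.23 and the widest range of all members, from -0.28 at 7 h to 1.80 at 0.5 h. Dll4 passed the 2-fold mark at 0.32 without the 0 h or the 7 h array. Without the 7 h array 5 members were above embryo in place of 3, and without the 21 h array 2.

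The embryo-side ligands came from several families. Pdgfd, a platelet-derived growth factor, was the lowest, at -0.59, -0.62, -0.78, -0.54 and -0.57. All arrays were past 2-fold, but its 2 probes did not read alike: one had a median of -1.09 and the other of -0.05. Bmp6, which signals to bone, cartilage and iron-handling liver cells, read -0.50, -0.58, -0.55, -0.31 and -0.43, and here both probes were low, with medians of -0.56 and -0.51. Dll1, the Notch ligand of somites and neural progenitors, read -0.42, -0.32, -0.52, -0.50 and -0.01, so that 4 arrays were past 2-fold below and the 21 h array was level with embryo.

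Bmp5 was the ligand with the least spread of those below embryo. It read -0.34, -0.31, -0.37, -0.38 and -0.28, an SD over the arrays of 0.05. Over the stretches above it lay at -0.29, where its probe was the same and only the centring differed. Vegfb, a VEGF family member expressed in heart and muscle, read -0.33, -0.30, -0.40, -0.16 and -0.19. Its median of -0.303 was at the edge of the rule, and it lay between -0.27 and -0.25 without the 0, 0.5 or 2 h array. It was also inside the mark without centring (-0.24), after quantile normalization (-0.22), with arrays scaled to one spread (-0.23) and with the median over probes (-0.296). Inside 2-fold lay Dll3 (-0.295), a Delta-like protein of somite segmentation, and Bmp7 (-0.24), a ligand of kidney and skeletal development. Dll3 passed the mark without the 0 h array (-0.301). Bmp7 passed it without the 0, 7 or 21 h array (-0.315 to -0.303) and over the stretches above (-0.345). The 2 Bmp7 probes had medians of -0.39 and -0.10, and at 2 h only the lower one had a value. So 3 of 4 measured BMP ligands were below 0 on every array and the remaining one, Bmp2, was above 0 on every array.

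Wnt and FGF ligands lay close to 0. None of the 4 measured Wnt ligands was past 2-fold by its median, and their medians ran from -0.10 for Wnt7b to 0.09 for Wnt7a. The 7 measured FGF genes ran from -0.11 for Fgf9 to 0.19 for Fgf22. Fgf12 (-0.01) and Fgf14 (-0.11) belong to this family by sequence but act inside the cell on sodium channels and not as secreted ligands. Vegfa, the chief angiogenic factor, had a median of 0.02 and stayed between -0.02 and 0.19 over 4 probes averaged. Pdgfa (-0.08) was slightly below 0 on all 5 arrays. Pdgfc (-0.12) was below 0 on all but the 0.5 h array, where it read 0.89.

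The receptor farthest from macrophages was Fzd9, a Frizzled known from brain and bone. Its probe read -0.81, -0.89, -0.89, -0.54 and -0.67. Every array was past 2-fold, and the median of -0.81 (SD 0.15) is a 6.44-fold excess in the embryo. Fzd3, a Frizzled of axon guidance, read -0.32, -0.90, -0.34, -0.37 and -0.45, alike on all arrays but that at 0.5 h. The other 3 Frizzled genes measured were near 0, with medians of -0.02 for Fzd4, 0.09 for Fzd7 and 0.11 for Fzd6. Fzd6 was the only receptor of the 17 above 0 on every array.

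Bmpr1a, a type I BMP receptor, read -0.35, -0.41, -0.67, -0.40 and -0.35 averaged over 3 probes whose medians ran from -0.68 to -0.14. Bmpr2, its type II partner, lay at -0.05. The FGF receptors differed among themselves. Fgfr3, a receptor of growth plate cartilage, read -0.34, -0.29, -0.48, -0.45 and -0.39. Fgfr1, which is broadly expressed in mesenchyme, read -0.33, -0.01, -0.48, -0.36 and -0.22. Fgfr2, the receptor of epithelia and bone, was at 0.08, averaged over 2 probes with medians of -0.08 and 0.25. Fgfr1 lay inside 2-fold, at -0.29 or -0.28, when the 0, 2 or 7 h array was left out. Over the stretches above it lay at -0.28, where its probe was the same and only the centring differed.

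Notch1 (median -0.05) and Notch2 (-0.06) were within 2-fold of embryo on all 5 arrays. Both PDGF receptor kinases, which mark mesenchymal cells and pericytes, were also near 0, Pdgfra at 0.02 and Pdgfrb at 0.07. Their arrays ran from -0.10 to 0.21 and from -0.03 to 0.18. The 7 fibroblast and stromal markers ran from -1.62 for the collagen Col1a2 to -0.11 for the collagen Col3a1. Pdgfrl, a receptor-like protein without a kinase, was below 0 on all arrays (median -0.27), and past 2-fold after quantile normalization (-0.34) or scaling to one spread (-0.32). It also passed the mark without the 0.5, 2 or 7 h array (-0.312 to -0.306). The TGF beta co-receptor Tgfbr3 had the highest median of the receptors and ran from -0.17 at 0.5 h to 0.17 at 0 h. No TGF beta ligand and neither TGF beta receptor kinase was among the genes analysed here.

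Binding proteins held both extremes of the secreted members. Fgfbp1, a carrier that frees FGF from the matrix and is known from skin epithelium, was the lowest of all 54 genes. It read -0.92, -0.82, -0.98, -0.56 and -0.85, every array past 2-fold and the median of -0.85 equal to a 7.08-fold excess in embryo. Igfbp4, which binds IGF and limits its access to the receptor, was the highest secreted member. It read 0.44, 0.36, 0.39, 0.20 and 0.44, with 4 arrays past 2-fold above embryo and the 7 h array short of it.

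The IGF binding proteins did not go one way. Igfbp5, abundant in muscle and bone, read -0.64, -0.22, -0.71, -0.62 and -0.53 as the mean of 3 probes with medians from -0.99 to -0.18. Igfbp3, the main carrier of IGF in blood, had a median of -0.24 and passed 2-fold below without the 0.5 h or the 21 h array (-0.304 each). Igfbp6 (-0.17), Igfbpl1 (-0.08) and Igfals (-0.07), the acid labile subunit of circulating IGF complexes, were within 2-fold by their medians. Of the 7 binding proteins 2 were 2-fold below embryo (28.6%, all genes 9.09%) and 1 above (14.3%, all genes 9.41%).

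Igf2bp1 was the highest of all members and the exception among the embryo markers. It encodes an RNA-binding protein, neither ligand nor receptor, that is known as a fetal gene with little expression in most adult tissue. Here it read 0.69, 0.31, 0.70, 0.43 and 0.49, past 2-fold above embryo on all 5 arrays with a median of 0.49. Its 2 probes disagreed in size. The first read 1.01, 0.61, 1.22, 0.71 and 1.11, and the second 0.37, 0.00, 0.18, 0.16 and -0.13. Only the first probe was past 2-fold above embryo on every array. The platform annotation gives both probes the same transcript accession, and their sequences were not analysed here.

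Its relative Igf2bp3 lay on the other side, at -0.25, -0.32, -0.52, -0.42 and -0.16, with probe medians of -0.67 and -0.08, and was inside 2-fold at -0.29 without the 2 h or the 7 h array, at -0.29 after quantile normalization and at -0.26 without centring. Tgfb1i1, a focal adhesion adaptor of contractile and mesenchymal cells, read -0.40, -0.72, -0.66, -0.28 and -0.52. Both of its probes were below 0 on all arrays, but their medians were -0.77 and -0.28, over 2-fold apart, with the second inside the mark. Bmp1, a procollagen protease and not a BMP ligand, averaged 0.15 over probes of opposite sign (medians 0.47 and -0.13). Fgfr1op2 was at 0.08.

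Of the 19 members with more than 1 probe, 8 had probe medians over 2-fold apart and 6 had probe medians of opposite sign. The same shares were not computed for all 3277 genes with more than 1 probe, so these counts are no result about this family. The gap was widest for Pdgfd (1.03), Igf2bp1 (0.86) and Igfbp5 (0.81), and smallest for Fgf21 and Fzd4 (0.02 each). The other 37 members rest on 1 probe.

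**Figure D3:**
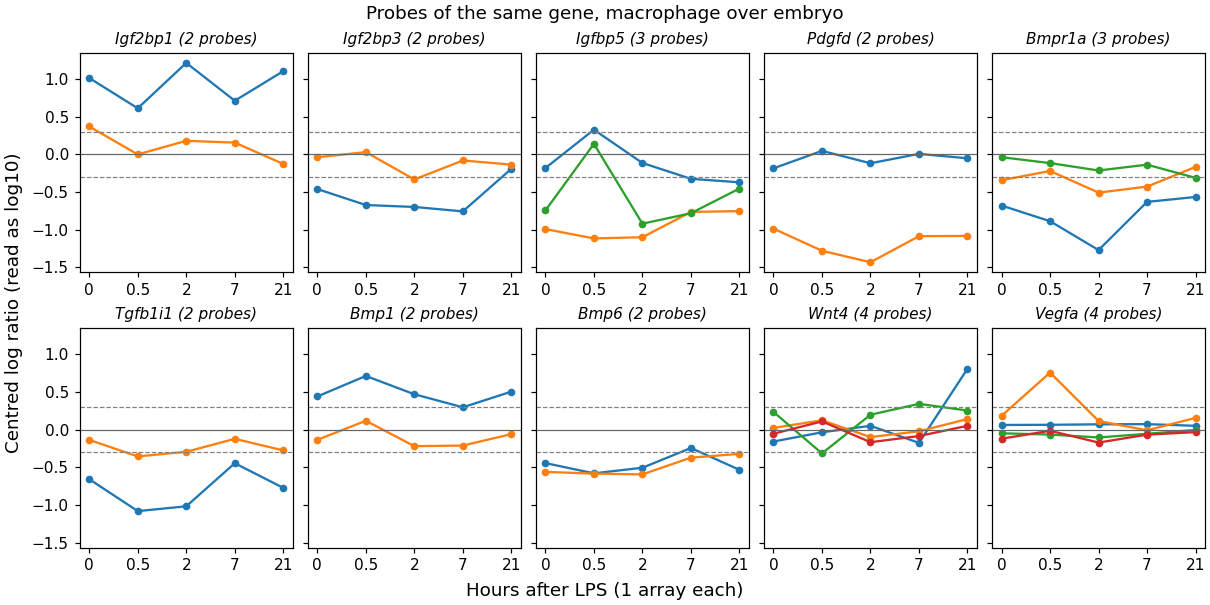
Centred log ratio of macrophage over embryo (vertical axis, read as log10) against hours after LPS (horizontal axis, 1 array each) for 10 genes with several probes, chosen after their values were seen. Each line is 1 probe and dashed lines mark a 2-fold difference. The probes of Bmp6 run together, those of Pdgfd, Igf2bp1 and Bmp1 run apart, and at 21 h 1 of 4 Wnt4 probes reads 0.81 while the others read 0.25 or less.

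The genomic sequence before the start of 4 of these genes is shown because they stand farthest to each side among members with an entry in the RefSeq promoter table (GRCm38.p6), which matched 41 members. The genes shown and the motifs were chosen after the values were seen. Each is the 250 bases before the annotated start, 5′ to 3′ on the gene's strand: Igf1 at chr10:87860861-87861110 (plus strand), Igfbp4 at chr11:99040994-99041243 (plus), Fgfbp1 at chr5:43981800-43982049 (minus) and Fzd9 at chr5:135251048-135251297 (minus). Capitals mark 3 motifs on either strand, which do not overlap in these windows. The letters GAGGAA are a longer form of the ETS core, of the kind that PU.1 of macrophages can bind. Shorter matches to the ETS core were not searched. The letters GGGCGG are the GC box, and the letters TATAAA the TATA box.
Igf1: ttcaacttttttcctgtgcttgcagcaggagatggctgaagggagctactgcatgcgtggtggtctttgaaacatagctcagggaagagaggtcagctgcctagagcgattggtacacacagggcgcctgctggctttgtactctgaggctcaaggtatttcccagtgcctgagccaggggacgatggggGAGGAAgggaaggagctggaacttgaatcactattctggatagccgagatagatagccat
Igfbp4: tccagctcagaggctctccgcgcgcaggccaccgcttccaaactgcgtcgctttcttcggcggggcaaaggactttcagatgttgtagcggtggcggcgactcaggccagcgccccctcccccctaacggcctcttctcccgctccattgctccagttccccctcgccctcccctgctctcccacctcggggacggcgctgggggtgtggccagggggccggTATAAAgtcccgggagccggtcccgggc
Fgfbp1: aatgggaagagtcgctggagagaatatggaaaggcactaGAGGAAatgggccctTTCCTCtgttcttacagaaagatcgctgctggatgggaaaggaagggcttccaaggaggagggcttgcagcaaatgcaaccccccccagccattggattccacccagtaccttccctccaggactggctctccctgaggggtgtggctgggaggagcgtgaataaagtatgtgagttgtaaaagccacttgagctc
Fzd9: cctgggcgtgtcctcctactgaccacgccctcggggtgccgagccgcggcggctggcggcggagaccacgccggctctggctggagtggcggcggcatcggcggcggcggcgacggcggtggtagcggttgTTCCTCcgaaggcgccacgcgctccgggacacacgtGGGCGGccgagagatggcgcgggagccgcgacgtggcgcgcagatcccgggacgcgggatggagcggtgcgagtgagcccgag

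Above embryo, the Igf1 window held the ETS core and the Igfbp4 window the TATA box, each at 1 place. Below embryo, the Fgfbp1 window held the ETS core at 2 places, and the Fzd9 window held the ETS core and the GC box at 1 place each. The ETS core was thus present on both sides. Over the 41 member windows the ETS core was found in 13 (31.7%), beside 23.1% of 27025 windows of the same length in the table, and the GC box in 25 (61.0%), beside 32.9%. The TATA box was found in 4 (9.76%), beside 13.0%. Base content was computed over most, but not all, of these member windows. They were richer in G and C, with a median of 64.0% beside 52.0% for all. The part of base content in the GC box count was not tested. These are letter matches and were not measured as binding sites.

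Differences after LPS were few on the arrays that followed the 0 h array. At 2 h, 2 members were 2-fold or more higher than at 0 h (3.70%, all genes 4.45%) and 1 lower (1.85%, all genes 2.58%). At 7 h, 3 were higher (5.56%, all genes 3.36%) and 1 lower (1.85%, all genes 1.45%). At 21 h, 4 were higher (7.41%, all genes 4.38%) and 3 lower (5.56%, all genes 4.61%). These shares lie near those of all genes, so the counts are no result about this family. Over the 3 arrays together 12 of 54 members were past 2-fold on at least 1 (22.2%, all genes 16.4%). Each difference uses the same 0 h array, so its chance values are in all of them.

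The differences are given by role as a description. At 2, 7 and 21 h, 2, 2 and 4 of the 25 ligands were higher than at 0 h and 0, 1 and 1 lower. Of the 17 receptors none was higher, where the shares of all genes would give fewer than 1 at each time, so nothing is read from it. The receptor Bmpr1a was lower at 2 h, by -0.31 ± 0.24 (SD over 3 probes). Igf1 was the only member past 2-fold in 1 direction on more than 1 of these arrays, where 1.55% of all genes were so upwards. It was higher by 0.35 at 2 h and 0.32 at 21 h, and differed by -0.01 at 7 h.

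The other differences each stood on 1 array. At 2 h Dll4 was higher by 0.39. At 7 h Vegfc was higher by 0.69, Fgfbp1 by 0.36 and Fgf22, an FGF of synapse formation, by 0.33, and Wnt5b was lower by -0.38. At 21 h Fgf9, an FGF of gonad and lung development, was higher by 0.57 and Dll1 by 0.41, and Igfals (-0.61), Vegfc (-0.53) and Igfbpl1 (-0.42) were lower. Each of these rests on 1 probe, and Vegfc changed sides between 7 and 21 h. Wnt4, which acts in kidney and gonad development, was higher at 21 h by 0.30 ± 0.45 (SD over 4 probes), a spread wider than the difference, since 1 probe differed by 0.97.

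At 0.5 h, 8 members were higher (14.8%, all genes 19.8%) and 6 lower (11.1%, all genes 10.8%). The largest were Dll4 (1.78), Pdgfc (1.01) and Wnt7a (0.62) upwards and Igfbp6 (-0.78) and Fzd3 (-0.57) downwards, each on 1 probe. Notch2 (0.36) and Fgfr1 (0.32) were also higher and Igf2bp1 (-0.39) lower. Between probes of the same gene the difference from 0 h had a pooled SD of 0.48 here, beside 0.16 to 0.20 on the later arrays. The 0.5 h array followed the others better in some stretches of probe numbers than in others, with correlations per stretch of 400 probes from -0.01 to 0.90. Of the 14 members past 2-fold at 0.5 h, 8 had all their probes in stretches with a correlation of at least 0.7, Dll4, Pdgfc, Wnt7a, Igfbp6 and Fzd3 among them. Of all 83 member probes 47 lay in such stretches, so nothing is read from this count. Such a stretch does not vouch for a single probe. In the stretch that held Dll4 and Wnt7a, 1 Vegfa probe was higher by 0.57 and another by 0.002. A local effect of the array was not tested. Dll4 read 1.80 at 0.5 h, 0.41 at 2 h and -0.28 at 7 h, on 1 probe and 1 array each.

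**Figure D4:**
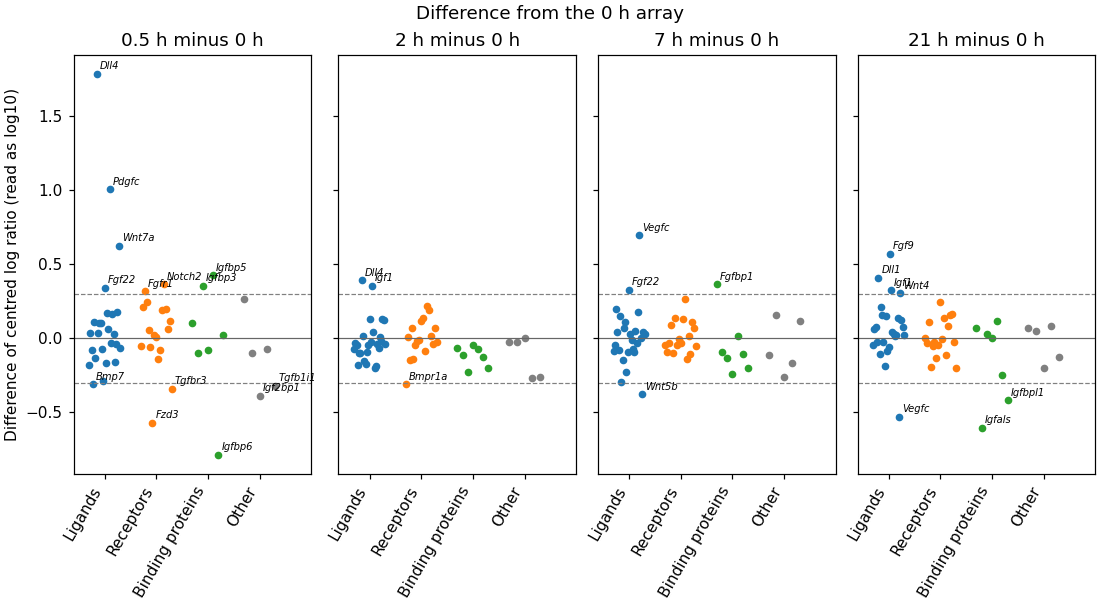
Difference of the centred log ratio from the 0 h array (vertical axis, read as log10) for the 54 genes at 0.5, 2, 7 and 21 h, by role. Points are genes, dashed lines mark a 2-fold difference and genes past it are named. The 0.5 h panel is the widest, and at 2, 7 and 21 h few genes lie past the lines.

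Other genes of the same pathways, taken from lists of partners and targets that the symbols above do not cover, were read in the same way, beside the 9.09% of all genes 2-fold below embryo and the 9.41% above. Of 18 measured genes of Wnt signal transduction and its antagonists 3 were 2-fold below (16.7%) and 1 above (5.56%), with a median of -0.13. The secreted antagonist Sfrp2 stood at -1.11, the ubiquitin ligase subunit Fbxw11 at -1.31 and the kinase Csnk1d at -0.59, while Pygo2, a nuclear cofactor of beta-catenin, stood at 0.32. Fbxw11 read -0.29 at 0.5 h and between -1.47 and -1.17 on the other arrays. Of 18 TGF beta and BMP genes 4 were below (22.2%) and none above, with a median of -0.08. These were Fstl1, a secreted follistatin-like protein (-1.84), the proteoglycan Dcn (-0.77), the signal transducer Smad5 (-0.44) and Twsg1, a BMP-binding protein (-0.38).

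Among 18 Notch partners and targets 2 were below (11.1%), near the share of all genes, and none above, with a median of -0.03. The 2 were Nrarp (-0.49), a target that dampens the signal, and the Delta-like protein Dlk1 (-0.34). The highest was Psen2 (0.27), a subunit of the gamma-secretase that releases the Notch intracellular domain. Of 14 genes of receptor tyrosine kinase transduction none was below and 3 were above (21.4%), with a median of 0.05. They were Pik3r1 (0.50), the regulatory subunit of phosphoinositide 3-kinase, Nras (0.43) and the heparan sulphate proteoglycan Sdc4 (0.33). Of 8 VEGF receptors and partners 1 was above (12.5%) and none below, with a list median of 0.02. Nrp2, a co-receptor of VEGF-C, read 0.52, 0.65, 0.68, 0.48 and 1.05, past 2-fold on every array. The VEGF receptor Flt1 was at -0.06.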

How the data were processed

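The values are log10 ratios as deposited by the authors, 1 for each of 19828 probes on each array, already formed from both dye channels. Neither the labels nor the table states the log base, the centring or the direction: base 10 was read from the size of the values and macrophage over embryo from marker genes. No source used here gives the scanner, background correction or normalization. Per the labels, Cy3 was coupled to the cDNA by an indirect method. Deposited medians ran from 0.00 to 0.07, and between 18724 and 19674 probes had a value. Precision is limited by how few arrays there are.

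Probes with 1 symbol in the platform annotation (14759) were averaged per gene. The median of the 8463 genes with a value on all 5 arrays was subtracted from each array. All 56 members matched a RefSeq gene (GRCm38.p6) by Entrez identifier. Values per array are printed for members 2-fold from embryo, the highest and lowest ligands and receptors, members 2-fold from 0 h on several arrays, and Igf2bp1; other members and pathway genes are printed by their median. The members and lists were chosen with earlier results of these data known. The steps were tested on simulated data. Alternatives changed the centring, scaling, probe averaging, filter, arrays, log base and size rule. The scripts ran in Python 3.11.15 with pandas 2.3.3 and numpy 2.4.6, and matplotlib 3.10.9 drew the figures.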

Additional observations from a re-analysis of the deposited data

How the results depend on the processing

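No paired analysis was possible because each time had 1 array. The 17 members 2-fold from embryo kept their sign under the alternatives that gave them a value; Igfbp4 and Vegfb had none over the stretches below, and the pathway genes were not recomputed. With 1 array left out at a time, 12 to 16 members were 2-fold below embryo (all genes 8.25% to 9.87%). Above were 2 to 5 (all genes 9.11% to 11.1%). On every array 21 to 25 were below 0, and 11 of the 14 genes 2-fold below kept their call. The ligand median then ran from -0.0513 to -0.00922, the receptor median from -0.0976 to -0.0175 and their difference from -0.0299 to 0.0884. Read as log base 2, 0 members were 2-fold above (all genes 0.354%) or below embryo (all genes 0.733%). In that reading 2 were higher at 0.5 h, and at every time 0 were lower and at 2, 7 and 21 h 0 higher. With a 1.5-fold rule 7 were above embryo (all genes 20.0%) and 19 below (all genes 17.9%). By the same rule 13 were higher than at 0 h at 0.5 h, and 4 higher and 8 lower at 2 h. At 7 h 5 were higher and 6 lower, and at 21 h 8 were lower. Without centring the ligand median was 0.00648 and 2 members were lower at 7 h; after quantile normalization 4 were lower at 7 h. Scaled to one median absolute deviation, 1 was higher and 0 lower at 2 h and 4 lower at 7 h, and with the median over probes 0 were lower at 2 h. Over probes in stretches where the 0.5 h array followed the others, which kept 40 members, 13 were below 0 on every array. The ligand median was 0.0453, the receptor median -0.129 and their difference 0.174, with 2 lower at 2 h, 1 higher at 7 h and 1 lower at 21 h. The causes were not tested. The last setting kept fewer members and was centred anew on its own genes. Shares of all genes were not computed for the counts against 0 h here, nor for those below 0 on every array. Nothing is read from these counts. Signal over background was not analysed here.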
